A study of Mus musculus with 4 samples.

Results

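The genes described here are 7 of the 24421 genes in the deposited count tables: Neat1, Malat1, Nono, Sfpq, Pspc1, Matr3 and Slc7a2, taken by symbol. They hold 2351 of the 1205252 positions in the deposited table of RNA changes, which assigns each position to a gene name. Paraspeckles are nuclear bodies that form around the long isoform of the Neat1 RNA. They hold the RNA-binding proteins NONO, SFPQ and PSPC1, which belong to one family. RNAs whose 3′ UTR carries SINE repeats in opposite orientation can fold into double-stranded stretches, in which ADAR1 converts adenosine to inosine, read as A-to-G in sequencing. Such RNAs can be held in the nucleus, and the mouse example most cited is a long 3′ UTR form of Slc7a2, the gene of a cationic amino acid transporter. NONO, SFPQ and matrin 3 (Matr3) are known to bind RNA rich in inosine. Malat1 is the neighbour of Neat1 on the chromosome and resides in nuclear speckles, the sites of splicing factor storage.

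Lung endothelial cells (ECs) were grown from 2 inducible ADAR1 knockout (i-KO) mice of separate litters, both male, of strain C57/BL6 and 2 weeks old. Cells of each mouse were split into a culture treated with 4-OH-Tamoxifen (TM), which induces removal of the floxed end of the ADAR1 gene, and a nontreated culture (CON). This gave 4 libraries, a CON and a TM library of each of the mice EC1 and EC2, with n = 2 per group and the groups paired by mouse. Where 4 values stand in a row, they are CON and TM of EC1, then CON and TM of EC2. CON cells carried the same floxed alleles and the same inducible Cre, whose promoter is not given in the sources used here. No TM-treated culture without the floxed alleles was among these libraries, so the agent and the deletion cannot be told apart. The cells had been selected with beads for the surface proteins of Pecam1 and Icam2, and in bulk RNA fewer cells of a type and less RNA per cell cannot be told apart.

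The libraries held 1095488 to 1778732 counts on genes, 0.823% to 0.858% of the 131796753 to 207323870 reads in their count tables. Pooled over all genes, these counts came mainly from the strand opposite to each gene. Of the 23376 genes in the table that matched GENCODE vM21 by name, 24.1% share exonic bases with a gene of the opposite strand, and these genes held 73.9% to 78.9% of the counts. All 20 of the 20 genes with the most counts were among them. Copg2, which overlaps the end of Mest, led with 47225, 13591, 68113 and 22714. Per kb of exon and per 100 reads of their own depth, 4459 genes free of such overlap had a median of 2.07 counts. Per kb of overlap and per 100 reads of the partner's depth, 466 overlapped genes had 267. The library kit marks strand, and the study names default settings for its tools. In the genes free of overlap, counts per kb followed own depth with a Spearman correlation of 0.54. In the overlapped genes the correlation was 0.32 with the partner's depth and 0.08 with their own. Neat1, Nono, Sfpq and Pspc1 share no exonic bases with an opposite-strand gene, so this check does not settle the source of their counts. The gene counts below are therefore given as deposited and are not taken as levels of the named RNAs.

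Levels were taken from read depth at changed positions, which counts reads of both strands and is per base. For each library the median was taken over the exonic and UTR positions that this library lists, and it was expressed per 100000000 reads and compared by limma over 6836 genes. A library lists a position only where at least 1 read was altered, so a lower rate of alteration leaves the deeper positions in the list. The same holds between genes, so medians of genes with unlike altered shares are not fully comparable. The counts were compared by edgeR's quasi-likelihood test over 7899 genes.

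Adar itself was read first, in the exons of its 15-exon transcript in vM21. In exons 1 to 11 the median depth was 152.5, 664, 176 and 960 reads. In exons 12 to 14, within the part that the study deletes, 3 changed positions were listed in EC1 CON (median depth 145 reads) against 0 in EC1 TM, and 1 in EC2 CON (169 reads) against 2 in EC2 TM (median 65.5 reads). Exon 15, the last and also named as deleted, had 99, 422, 156 and 835 reads over 9, 17, 2 and 15 positions, so it was deeper in TM in both mice. The end of this exon is shared with Chrnb2 on the other strand. In its bases before that overlap the depth was 89.5, 109, 165 and 146 reads over 6, 6, 1 and 3 positions. The count of Adar was 9, 47, 16 and 71.

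By summed median depth per 100000000 reads, the 8 endothelial markers gave 14255, 11969, 16963 and 13069, and 6 leukocyte markers 10.5, 0, 28.6 and 8.44, with 5 of them listed in no library. The 6 fibroblast and smooth muscle markers gave 318, 112, 582 and 215 over 5, 4, 6 and 6 listed genes, lower in TM in both mice. A gene that a library does not list adds 0, so the sums of EC1 cover unlike sets of genes. By limma on depth 1 of the 6, Tagln, was tested, and it was not called. The 5 epithelial markers gave 30.7 to 40.3, with Epcam, Cdh1 and Sftpc not listed. All 8 endothelial genes had a log2 fold change below 0 by depth, from −0.71 to −0.10 with a median of −0.54, where the median of all genes was 0.01, and 0 of the 8 were called by limma. The depth test over shared positions called 1, Tie1 (log2 fold change −1.10, adjusted p = 0.0406 from limma, in a test that called 2.31% of its 2898 genes as lower). The part of this shift in the values below was not tested.

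Of the 7 genes, Slc7a2 was the one whose depth passed the test, and it was higher in TM. Of its 32 listed exonic positions 27 lay in SINEs of the 3′ UTR, so this depth describes mainly that part of the RNA. By the deposited counts 0 of the 6 genes tested were called, where 7.75% of all genes tested were (4.39% higher and 3.35% lower in TM). By DESeq2 0 were called, where 3.83% of all genes tested were. At an unadjusted p under 0.05 none of the 6 passed in edgeR. By depth 1 of 7 was called, where 11.8% of all genes tested were (6.39% higher and 5.44% lower in TM). With the mouse as a replicate block the calls were again 0 by edgeR (15% of all genes called) and 1 by limma (18.9%). The genes were ordered by the median depth per 100000000 reads over the 4 libraries, an order that the listing limit above also affects. Malat1 ranged from 10459 to 14747 and stood alone. Nono ranged from 512 to 769, Sfpq from 453 to 649 and Neat1 from 365 to 682, so these ranges overlapped. Matr3 ranged from 291 to 431 and overlapped with Neat1. Pspc1, from 53.6 to 66.8, and Slc7a2, from 2.79 to 12.1, stood below and apart.

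**Figure D1:**
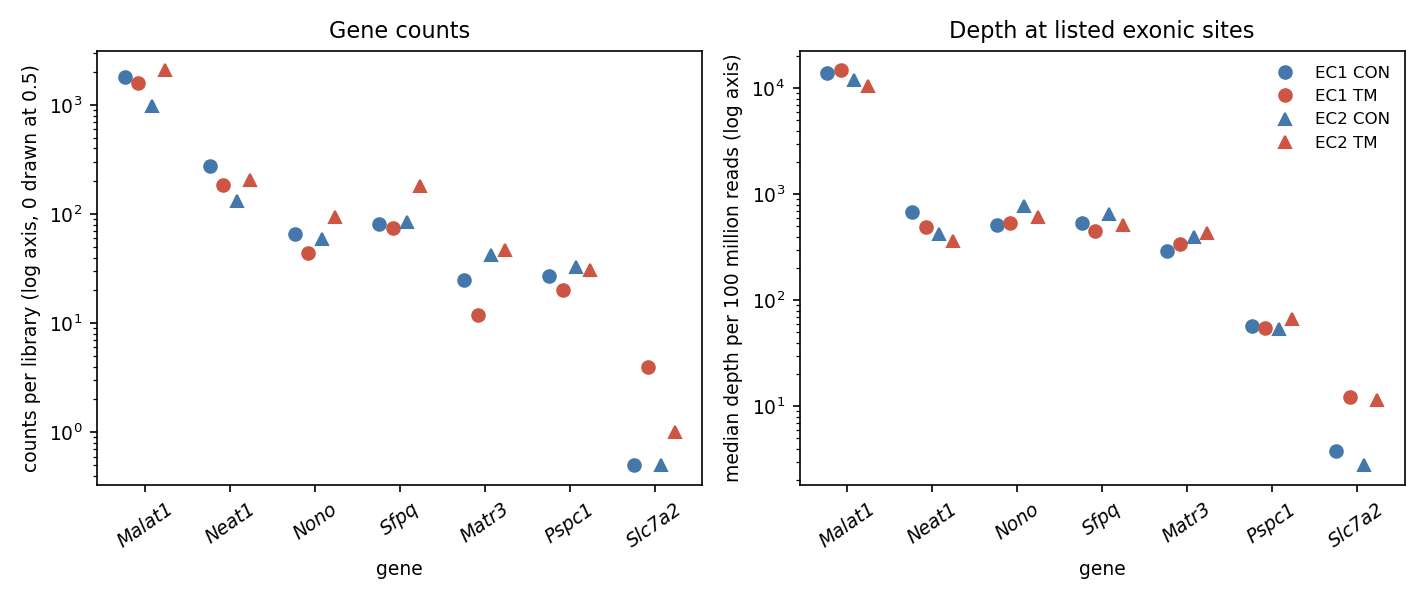
Gene counts per library as deposited (left, log axis, with 0 drawn at 0.5) and median depth at listed exonic positions per 100000000 reads (right, log axis) of the 7 genes, with CON in blue, TM in red, EC1 as circles and EC2 as triangles. Malat1 lies between 10459 and 14747 on the right, and Slc7a2 has the widest gap between its TM libraries (12.1 and 11.6) and its CON libraries (3.76 and 2.79).

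The edited RNA of Slc7a2 (ENSMUSG00000031596.15, mm10 chromosome 8, 40862396 to 40922308, plus strand) was the least deep of the 7 in every library. Its gene count as deposited was 0, 4, 0 and 1. The counts were too low for edgeR's filter. Median depth at its exonic positions was 5 and 16 reads in EC1, from CON to TM, and 4 and 24 reads in EC2, over 11, 18, 13 and 14 positions. Both TM libraries lay above both CON libraries, also per 100000000 reads, at 3.76, 12.1, 2.79 and 11.6. The log2 fold change was 1.87 (SE 0.53, adjusted p = 0.0170 from limma). With 1 library left out the log2 fold change stayed between 1.66 and 2.09, but the adjusted p was 0.0618 without EC2 CON, 0.131 without EC1 TM and 0.104 without EC2 TM. At positions listed in both libraries of a mouse, which share transcripts and are not replicates, TM was deeper at 8 of 8 in EC1 (median log2 ratio 2.56) and at 4 of 4 in EC2 (1.76). The medians of all genes with at least 3 such exonic positions were 0.01 over 1806 genes in EC1 and −0.11 over 2432 genes in EC2. Of its exons, 635 bases are shared with an exon of Gm26584 on the opposite strand.

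Changes in Slc7a2 were found almost only in 3 B1 repeats of the 3′ UTR, 27 of 32 exonic positions by the deposited repeat names. Of 117 adenosines in these repeats, 11, 17, 12 and 11 were listed. Of the 1491 other adenosines of the same 3′ UTR, 0, 1, 0 and 1 were listed. The remaining 3 exonic positions, 1 in the 5′ UTR and 2 in other exons, were listed 0, 0, 1 and 2 times. The B1_Mus1 element, at 40917758 to 40917889, lies on the minus strand, and B1_Mus2 (40920136 to 40920262) and B1_Mm (40920496 to 40920631) lie on the plus strand, so that their copies in the RNA are in opposite orientation. Aligned with the reverse complement of B1_Mus1, B1_Mus2 was identical at 69 of 86 positions and B1_Mm at 97 of 133, with 2246 and 2606 bases between the elements. Median depth over B1_Mus1 was 5, 18, 6 and 25 reads. Over B1_Mm it was 1, 10, 2 and 11.5 reads.

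The 3 positions of Slc7a2 that met the study's criteria for an editing site in at least 1 library are shown with 14 bases on either side, 5′ to 3′ in the sense of the transcript, from GENCODE vM21 on mm10. The criteria were 5 reads of depth, 3 altered reads and an altered share of 5% to 95%, and the altered adenosine is in capitals.
Slc7a2 chr8:40917763-40917791, plus strand, B1_Mus1: aacaggttctttctAtgtagccctggaac
Slc7a2 chr8:40917785-40917813, plus strand, B1_Mus1: ctggaactcactctAtagaccagactaac
Slc7a2 chr8:40920527-40920555, plus strand, B1_Mm: cagcagaggcaggcAgatttctgagttca

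At the second of these, position 40917799, 3 of 5 reads were altered in EC1 CON (60.0%, Wilson 95% interval 23.1% to 88.2%) and 3 of 19 in EC1 TM (15.8%, 5.52% to 37.6%). In EC2 the altered reads were 1 of 6 in CON and 1 of 25 in TM. The altered share was lower in TM in both mice, but Fisher's exact test gave p = 0.0785 in EC1 before adjustment and the intervals overlapped. At the first, position 40917777, no reads were listed in EC1 CON, and 3 of 18 were altered in EC1 TM, 1 of 4 in EC2 CON and 1 of 20 in EC2 TM. At the third, position 40920541, the CON libraries listed nothing, and 1 of 11 reads was altered in EC1 TM and 4 of 12 in EC2 TM (33.3%, 13.8% to 60.9%). Over all exonic positions listed in both libraries of a mouse, 10 of 25 reads were altered in EC1 CON and 13 of 134 in EC1 TM, 40.0% and 9.70%. In EC2 it was 4 of 17 and 4 of 80, 23.5% and 5.00%. Because 1 altered read is needed for listing, the lowest share that could have been listed at these depths was 32.0% (CON) and 5.97% (TM) in EC1 and 23.5% and 5.00% in EC2. The lower share in TM at these positions therefore moved with the greater depth and cannot be told apart from that limit. The altered reads summed over the 117 B1 adenosines, a total that this limit does not bound, were 13, 27, 12 and 14. Median depth at those of them that were listed was 5, 14, 3 and 24 reads. A change in the rate of editing was not tested on these totals. Intervals cover counting error only.

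Neat1 (ENSMUSG00000092274.3, chromosome 19, 5824708 to 5845478, minus strand), the RNA on which paraspeckles form, was slightly less deep in TM within each mouse. Its median exonic depth was 908, 644, 611 and 756 reads, and its count 274, 184, 131 and 206. Per 100000000 reads the depth was 682, 489, 426 and 365, so that EC1 TM lay above EC2 CON and the groups overlapped. The log2 fold change was −0.35 by depth (SE 0.30, adjusted p = 0.519 from limma), within the −0.71 to −0.10 of the endothelial markers, and −0.36 by counts (SE 0.33, adjusted p = 0.600 from edgeR). A test of the depth summed over positions listed in all 4 libraries, of which Neat1 had 3, gave −0.37 (SE 0.28, adjusted p = 0.568 from limma over 2898 genes, of which 5.59% were called). With the mouse as a replicate block this adjusted p became 0.0113, in a fit that called 32.8% of the genes tested and 20.4% as lower in TM. The block did not bring Neat1 past the threshold in the other 2 measures.

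Within a mouse the lower depth ran along the whole of Neat1. At exonic positions listed in both libraries, TM was lower at 38 of 38 in EC1 (median log2 ratio −0.38) and at 26 of 26 in EC2 (−0.30). These values lay at the percentiles 22.8 and 34.3 of all genes with such positions. In bins of 1 kb, TM was lower in 21 of 21 bins in EC1 and in 20 of 21 in EC2. The first 3172 bases, which the short isoform shares with the long one, were 2.86, 3.41, 3.75 and 3.74 times as deep as the 17599 bases of the long isoform alone. This ratio was higher in TM in EC1 and almost equal in EC2, but it compares positions that differ between libraries. At positions listed in both libraries of a mouse, the median log2 ratio of TM over CON was −0.31 over 15 positions of the shared part and −0.41 over 23 of the long isoform alone in EC1. In EC2 it was −0.16 over 9 and −0.36 over 17. The long part was thus the lower in both mice, by medians whose ranges over positions overlap, and the difference was not tested. The 3 genes of the depth test over shared positions whose depth over the 4 libraries was most like that of Neat1, by Euclidean distance in centred log2 depth, were Snapc1 (0.0574), 2210416O15Rik (0.0677) and Zfpm2 (0.0709).

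**Figure D2:**
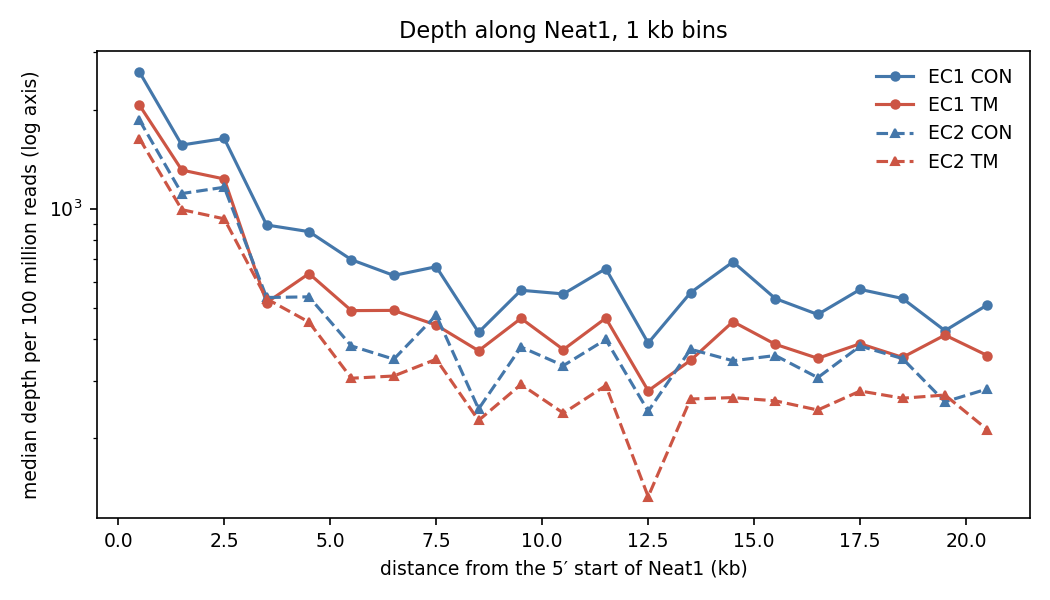
Median depth per 100000000 reads (log axis) in bins of 1 kb against the distance from the 5′ start of Neat1, with CON in blue, TM in red, EC1 as circles with solid lines and EC2 as triangles with dashed lines. Depth falls after the part shared with the short isoform, and TM lies below CON in 21 of 21 bins of EC1 and 20 of 21 bins of EC2.

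Malat1 (ENSMUSG00000092341.3, chromosome 19, 5795690 to 5802672, minus strand) did not move in one direction. Its count was 1793, 1602, 972 and 2072, with a log2 fold change of 0.08 (SE 0.30, adjusted p = 0.931 from edgeR). Its median depth per 100000000 reads was 13837, 14747, 12037 and 10459, with a log2 fold change of −0.06 (SE 0.43, adjusted p = 0.960 from limma). At positions listed in both libraries of a mouse, TM was lower at 20 of 22 in EC1 (median log2 ratio −0.19) and at 2 of 19 in EC2 (0.19). The mice thus went opposite ways. The own-listed median and the matched positions also disagreed in sign in each mouse, and the listed positions differed in number, 144, 172, 235 and 109. The gene shares 453 exonic bases with Gm37376 on the opposite strand.

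**Figure D3:**
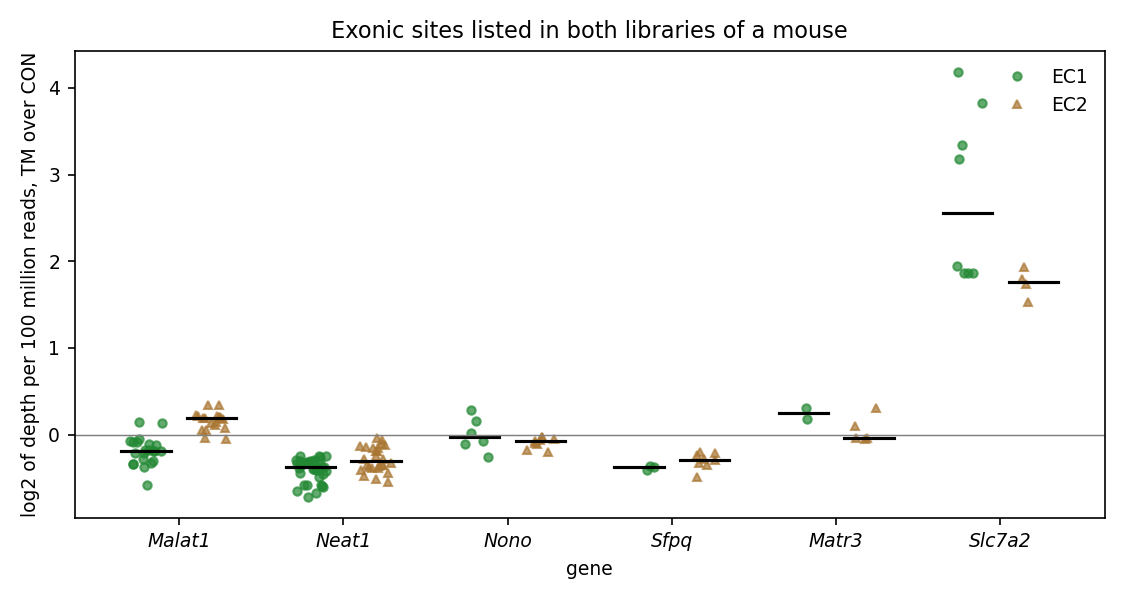
Log2 ratio of depth per 100000000 reads, TM over CON, at each exonic position listed in both libraries of a mouse, with EC1 as green circles, EC2 as brown triangles and the median of each mouse as a black bar. All 38 and 26 positions of Neat1 lie below 0, the medians of Malat1 lie on opposite sides of 0 (−0.19 and 0.19), and all 8 and 4 positions of Slc7a2 lie above 0.

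Altered reads in both long non-coding RNAs were few relative to their depth. Neat1 had 952 listed positions and Malat1 548, and 0 of either met the editing criteria in any library. Among all listed positions, 0.619% of the exonic and UTR positions did, and 9.31% of those in SINEs. By the deposited repeat names, Neat1 had 107 listed exonic positions in SINEs and Malat1 17. Because 1 altered read is enough for listing, deep RNAs also list positions with a share far below the 5% of the criteria. The shares were not matched for depth, so the 0 cannot be read as less editing in these RNAs. Between 82.0% and 87.9% of the exonic positions listed in Neat1 rested on 1 altered read. At exonic positions listed in both libraries of a mouse, altered reads made up 0.0893%, 0.142%, 0.126% and 0.107% of the reads on Neat1. For Malat1 the shares were 0.0105%, 0.00966%, 0.0108% and 0.00867%. For Neat1 the share was higher in TM in EC1 and lower in TM in EC2, and for Malat1 it was lower in TM in both mice by a small margin. Each value is bounded from below by the 1 altered read needed for listing, which was 0.0632% to 0.0841% in Neat1 and 0.00402% to 0.00644% in Malat1.

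The 3 positions of Neat1 listed in all 4 libraries (5830485, 5827192 and 5843611) and 2 more in the same B1_Mm repeat as the first of them are shown as the changes that recurred. Each is given 5′ to 3′ on the minus strand with the altered adenosine in capitals.
Neat1 chr19:5830486-5830514, minus strand, B1_Mm: cctcgggctgttctAgaacttgctttgta
Neat1 chr19:5830467-5830495, minus strand, B1_Mm: ttgctttgtaaaccAggctggccaagaac
Neat1 chr19:5830471-5830499, minus strand, B1_Mm: gaacttgctttgtaAaccaggctggccaa
Neat1 chr19:5827178-5827206, minus strand: tgcagaacatatacAggacgtatagtaca
Neat1 chr19:5843597-5843625, minus strand: atactgggtggttgAgtggcaacagtggt

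At the first, position 5830500, 6 of 592 reads were altered in EC1 TM (1.01%), 4 of 613 in EC2 CON (0.653%) and 4 of 607 in EC2 TM (0.659%), and EC1 CON listed none. At the second, 5830481, it was 5 of 973 in EC1 CON, 5 of 633 in EC1 TM and 4 of 643 in EC2 TM. Neither was lower in TM in both mice. SINE adenosines of Neat1, 452 in 18 elements, were listed at 9.73%, 7.96%, 5.53% and 6.19%. Its 4261 other adenosines were listed at 6.31%, 5.59%, 5.28% and 5.56%. The listed share moved in opposite directions in the 2 mice in both regions, and in each mouse it moved with the raw depth, which went from 908 to 644 reads in EC1 and from 611 to 756 in EC2. Outside SINEs, 46.7% of the Neat1 positions listed in at least 2 libraries had a G before the altered A, against 25.2% of all adenosines there. Over all listed Neat1 positions outside SINEs it was 32.4%, and in its SINEs 36.4% (8 of 22) against 25.7%. For Malat1 outside SINEs it was 27 of 93, against 25.2%. In the SINEs of Slc7a2 it was 1 of 16 (6.25%), against 24.8%.

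**Figure D4:**
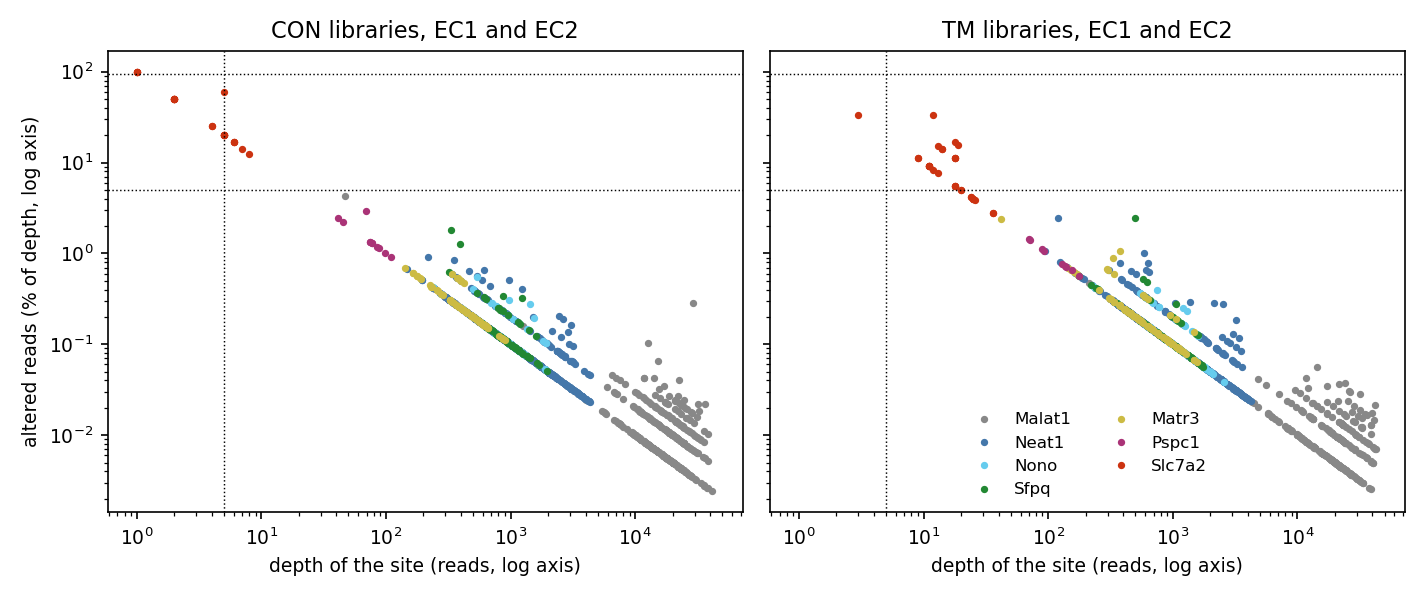
Altered reads as a percentage of depth against depth (both log axes) at every listed exonic position of the 7 genes, with CON libraries on the left and TM libraries on the right. Dotted lines mark the editing criteria of 5 reads, 5% and 95%; the diagonal bands are positions with 1, 2, 3 or more altered reads, and positions of Slc7a2 are the ones within the lines.

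Of the paraspeckle proteins, none of the 3 genes passed the test by counts or by depth. Nono (ENSMUSG00000031311.17, chromosome X, 101429318 to 101448591, plus strand) had counts of 66, 44, 59 and 95, and a depth per 100000000 reads of 512, 534, 769 and 610. Its log2 fold change was −0.25 by counts (SE 0.35, adjusted p = 0.765 from edgeR) and −0.14 by depth (SE 0.29, adjusted p = 0.832 from limma). Both EC2 libraries lay above both EC1 libraries in depth, so that by these own-listed medians Nono differed more between mice than between groups. At exonic positions listed in both libraries of a mouse, TM was lower at 3 of 6 in EC1 (median log2 ratio −0.03) and at 9 of 9 in EC2 (−0.07).

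Sfpq (ENSMUSG00000028820.13, chromosome 4, 127021324 to 127037013, plus strand), whose protein pairs with NONO and is needed for paraspeckles to form, had counts of 82, 75, 84 and 181 and a depth per 100000000 reads of 534, 453, 649 and 518. Within each mouse its depth was lower in TM, and at positions listed in both libraries it was lower at 3 of 3 in EC1 (median log2 ratio −0.38) and 8 of 8 in EC2 (−0.29). Both CON libraries lay above both TM libraries, 534 against 518 at the nearest. The log2 fold change was 0.20 by counts (SE 0.33, adjusted p = 0.808 from edgeR) and −0.28 by depth (SE 0.28, adjusted p = 0.605 from limma). The depth values of Sfpq, Nono and Neat1 all lie within the wide range of the endothelial markers, and a shared shift was not tested.

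One exonic position of Sfpq, 127027285, outside any repeat, was listed in all 4 libraries and is shown in the sense of the transcript with the altered adenosine in capitals.
Sfpq chr4:127027271-127027299, plus strand: gaaagagacatgagAatgggtggtggtgg
Altered reads there were 6 of 333 (1.80%) in CON and 1 of 249 (0.402%) in TM of EC1, and 5 of 391 (1.28%) and 12 of 493 (2.43%) in EC2. The share was lower in TM in EC1 and higher in TM in EC2, and Fisher's exact test called it in neither mouse.

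Pspc1 (ENSMUSG00000021938.12, chromosome 14, 56720710 to 56778316, minus strand) had the lowest level of the 3. Its counts were 27, 20, 33 and 31, its depth per 100000000 reads 57.9, 54.6, 53.6 and 66.8 over 3 to 7 positions, and its log2 fold change −0.60 by counts (SE 0.43, adjusted p = 0.485 from edgeR) and 0.12 by depth (SE 0.30, adjusted p = 0.864 from limma). None of its exonic positions was listed in both libraries of a mouse.

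Matr3 (ENSMUSG00000037236.16, chromosome 18, 35562138 to 35593835, plus strand), the nuclear matrix protein that binds inosine-rich RNA together with NONO and SFPQ, had counts of 25, 12, 42 and 47. Its depth per 100000000 reads was 291, 341, 394 and 431. By these own-listed medians depth was higher in TM in each mouse, but by less than the mice differed. At exonic positions listed in both libraries of EC2, TM was lower at 3 of 5 (median log2 ratio −0.04), so the 2 measures disagreed in sign there. EC1 had 2 such positions, at 0.18 and 0.31. The log2 fold change was −0.63 by counts (SE 0.45, adjusted p = 0.477 from edgeR) and 0.18 by depth (SE 0.28, adjusted p = 0.770 from limma). In the depth test over shared positions it was −0.11 over 10 positions (adjusted p = 0.858 from limma). All but the exonic one of these, 35572343, lie outside the gene.

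Over the 7 genes, 23 of 2351 listed positions (0.978%) met the editing criteria in at least 1 library, against 2.01% of the whole table. Most of the 2351 were of the deep RNAs Neat1 (952, 0 passing) and Malat1 (548, 0 passing). The shares were not matched for depth, so the lower one is not a result about the 7 genes. Of the exonic positions of the 7 genes 3 of 1972 (0.152%) met the criteria, against 0.619% in the whole table, and all 3 were in Slc7a2. A gene name in the table can stand for a neighbour, and only 3 of the other 20 lay in the named gene. Matr3 had 17, of which 13 were in introns of Paip2, a translation regulator downstream of Matr3, 1 in an exon of Paip2, 2 in the pseudogene Gm5239 and 1 in an intron shared by Gm28285 and Matr3. The one of Sfpq was in an L1_Mus2 element outside any gene, beyond its 3′ end. Both of Pspc1 were in B1 repeats of its own introns.

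At position 56776683, in B1_Mur2, Pspc1 had 3 of 7 reads altered in CON and 1 of 7 in TM of EC1, and 2 of 5 and 2 of 15 in EC2. At 56733134, in B1_Mur1, it had 3 of 12 in EC1 TM and 2 of 11 in EC2 CON, and the other libraries listed none. The depth of 5 to 15 reads leaves these shares imprecise.

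No position of the 7 genes was called between CON and TM by Fisher's exact test with adjustment over all positions tested in a mouse, at a depth of at least 5 or at least 20. Only positions listed in both libraries of a mouse could be tested. A position without an altered read in 1 library was left out, such as 35602542, with 3 of 47 reads in EC1 CON and unlisted in EC1 TM. A loss of all altered reads was therefore not tested. In EC1 0.141% of all positions tested were called (0.313% at a depth of 20), and in EC2 0.347% (0.709%). At a depth of at least 5, EC1 had 38 tested positions of Neat1, 22 of Malat1, 24 of Matr3 and 4 to 6 of each other gene. In EC2 these were 26, 19, 21 and 2 to 9. With so few positions at such shares, 0 calls cannot set the 7 genes apart from the rest. These tests compare 2 libraries each. Before adjustment p was under 0.05 at 1 position in EC1, in a B2_Mm2 repeat that the table gives to Matr3 and that lies in Paip2, and at 0 in EC2. That position, 35602545, had 10 of 47 reads altered in EC1 CON and 1 of 32 in EC1 TM (p = 0.0240 by Fisher's exact test), and 8 of 24 in EC2 CON and 4 of 23 in EC2 TM. Over the passing positions given to Matr3, the mean rate in CON minus that in TM was −0.00882 in EC1 and 0.0837 in EC2, a mean of 0.0374 ± 0.0654 (SD, n = 2 mice). The positions averaged included 35536718 in both mice and 35536634 in EC1, which lie in Gm5239. Positions that a library did not list were taken as 0 in this difference. The mice differed in sign, and an exact sign permutation over 2 mice cannot give a p below 0.5. For Slc7a2 the EC2 value would rest on 1 position that EC2 CON did not list, so no mean over mice is given. At the 1 passing position listed in both libraries of EC1 the difference was 0.442. Pspc1 and Sfpq each had 1 passing position listed in both libraries, in EC1 alone, with a difference of 0.286 and −0.0833.

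The genes around these 7 were read from 4 lists, with the counts again as deposited. Over all genes tested, 4.39% were called higher and 3.35% lower in TM by counts, and 6.39% and 5.44% by depth. Of 27 other paraspeckle proteins, 21 were tested by counts, with 1 higher and 0 lower in TM and a median log2 fold change of 0.12, where the median of all genes was 0.00. By depth 22 were tested, with 1 higher, 0 lower and a median of −0.01, where that of all genes was 0.01. With 1 call among 21 or 22 genes, the list was not set apart from all genes. The gene called was Taf15, an RNA-binding protein, in both measures. Its median depth was 322, 623.5, 419 and 1022 reads (log2 fold change 0.86, SE 0.28, adjusted p = 0.0390 from limma), and its counts 26, 59, 20 and 122 (1.57, SE 0.38, adjusted p = 0.00741 from edgeR and 0.0645 from DESeq2). Both TM libraries lay above both CON libraries in each measure. The adjusted p by counts was 0.0928 without EC2 CON and 0.0522 without EC2 TM, and by depth 0.0957, 0.399 and 0.438 without EC1 CON, EC1 TM or EC2 TM.

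Of 8 proteins that bind or act on double-stranded or inosine-containing RNA, 0 of 6 tested by counts were called (median −0.40). The depth test over shared positions called Endov, whose protein cleaves inosine-containing RNA, with 1028, 9943, 821 and 12920 reads summed over 42 positions and a log2 fold change of 3.37 (adjusted p = 2.79e-05 from limma, where 3.28% of all genes tested were called as higher). Of these positions 24 lie where Rnf213 and A930037H05Rik overlap, 6 in Rnf213 alone, 9 in introns of Endov and 1 in an exon of it, with 1 more in A930037H05Rik and 1 in no gene. At exonic positions of Endov the log2 fold change was 0.61 (adjusted p = 0.349 from limma), and its counts were 2, 2, 3 and 10.

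Of 10 nuclear speckle proteins, 0 of 9 were called by counts (median 0.22) and 0 of 10 by depth (median 0.15). Of 8 other nuclear long non-coding RNAs, 2 of 4 tested by counts were lower in TM, where 3.35% of all genes tested were, and 0 higher (median −1.17). By counts these were Kcnq1ot1 and Meg3, which both share exonic bases with genes of the opposite strand. Kcnq1ot1, an antisense RNA of the imprinted Kcnq1 locus, had counts of 761, 120, 575 and 194 (log2 fold change −2.45, SE 0.30, adjusted p = 8.61e-07 from edgeR), and it remained called in DESeq2. It lies within Kcnq1, which is on the other strand, and its own depth at listed positions was 23.5, 16, 8 and 12.5 reads (log2 fold change −0.21, adjusted p = 0.857 from limma). Meg3, an imprinted RNA, had counts of 25, 6, 12 and 4 (log2 fold change −2.17, SE 0.67, adjusted p = 0.0418 from edgeR and 0.369 from DESeq2), and without EC1 CON, EC2 CON or EC2 TM its adjusted p from edgeR was 0.653, 0.0548 or 0.330. By depth 1 of 4 was higher in TM, where 6.39% of all genes tested were, and 0 lower (median −0.05). This was Pvt1, the RNA next to Myc, with 73, 220, 79 and 245.5 reads (log2 fold change 1.36, SE 0.29, adjusted p = 0.00148 from limma) and counts of 10, 9, 1 and 15. Without EC1 TM its adjusted p was 0.114.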

How the data were processed

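RNA was depleted of ribosomal RNA, made into libraries with the KAPA RNA HyperPrep kit and sequenced on a NovaSeq6000. The authors used, by the submitters' processing notes, Trimmomatic 0.38 for trimming, STAR 2.6.1a for alignment to mm10 and HTSeq 0.11.2 for counting, and deposited raw counts per gene. The 5 summary rows of each table were left out, and the one for no gene held 92.8% to 93.9% of reads. They also deposited, for each changed position, reference and altered read counts and the altered fraction. Its columns were given to libraries through the study's supplementary site table, where the same positions have equal values.

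Tests on counts used edgeR 4.0.16 (quasi-likelihood, TMM scaling, filterByExpr) and DESeq2 1.42.0, and tests on depth limma 3.58.1 (trend) in R 4.3.3, with Benjamini-Hochberg adjustment at 0.05 over all genes tested, without a mouse term. Depth at exonic positions listed by each library, at least 3 in each, was added after seeing the data, because the test over positions listed in all 4 libraries held 2 of the 7 genes. Same-numbered libraries come from the same mouse, and their deviations from group means correlated with r = 0.155 over 7899 genes by counts and 0.0997 over 6836 by depth. On simulated data with 200 genes changed 4-fold, edgeR recovered 162 and falsely called 3 among 7502 genes, and limma on exonic depth 198 with 5 among 6836. The simulation gave all genes a common spread and had no mouse effect or listing, so it does not measure power for smaller changes. Annotation and transcripts were GENCODE vM21. The annotation the authors counted on is not given in the sources used here. Exons of GENCODE vM21 were overlapped between strands, over at least 100 shared bases for the 466 pairs, to see which strand the counts read, a check added after seeing the data. Pooled over all genes the counts were mainly of the opposite strand. The edgeR and DESeq2 values were therefore not taken as levels, and strand-free depth was.

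All 7 genes were named, list genes where called (at most 5 per list, 1 result not reported here), and for each gene the 5 passing positions of highest CON depth, which are summarised here for Matr3. Genes and lists were chosen with earlier results of these data known. Alternatives were DESeq2, the mouse as a block, other filters and scalings, and each library left out.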

Additional observations from a re-analysis of the deposited data

How the results depend on the processing

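None of the 6 genes tested by counts was called under any alternative run. List genes called by counts numbered 3, against 1 in DESeq2 and 1 in DESeq2 with the mouse as replicate block, and 1 to 4 with 1 library left out. By own exonic depth, 1 of the 7 genes and 3 list genes were called, against 0 to 1 and 0 to 4 with 1 library left out. The log2 fold change of Slc7a2 was then 1.66 to 2.09. The mouse as replicate block raised the calls of the depth test over shared positions from 162 to 951 genes, and those of edgeR from 612 to 1184. With the block Neat1 was called there at −0.37, 1 of 2 genes. Among list genes the block added Hnrnph3 by counts (log2 fold change −0.99, adjusted p = 0.00139 from edgeR), Snd1 by depth at shared positions (−0.49) and Cpsf6 by own exonic depth (0.70), and it changed no other call of edgeR or limma. DESeq2 called 366 genes in all. With 1 library left out, the remaining library of that group being assumed to vary like the others, the sign of some uncalled log2 fold changes turned. By counts the ranges were −0.79 to 0.23 for Neat1, −0.28 to 0.55 for Malat1 and −0.15 to 0.46 for Sfpq. By own exonic depth they were −0.30 to 0.19 for Malat1, −0.43 to 0.16 for Nono, −0.028 to 0.26 for Pspc1 and −0.042 to 0.40 for Matr3. The cause was not tested. The mean rate difference of Matr3 was 0.0245 to 0.0626 under other criteria for a site. Depth limits Slc7a2, with 5 or fewer reads at the median position in CON.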
